A study of Mus musculus with 2 samples.

Results

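Capillary endothelial cells of the mouse cerebellum were the 479 cells, of 3451 filtered cells in all, that expressed endothelial genes and at least 2 of 6 capillary genes while holding few genes of any other vessel zone. They were selected on measured counts: at least 3 of Cldn5, Flt1, Pecam1, Cdh5 and Slco1a4 had a UMI (1 counted mRNA molecule), fewer than 3 of the mural genes Abcc9, Kcnj8, Atp13a5, Vtn and Notch3 did, and at least 2 of Car4, Mfsd2a, Slc16a1, Ctla2a, Bok and Car5a did. Fewer than 2 genes were allowed from each of the arteriolar-side capillary list (Hey1, Tcim, Lypd1, Stmn2, Slc26a10, Dync1i1), the arterial list (Gkn3, Bmx, Egfl8, Sema3g, Vegfc, Npnt, Igfbp3) and the venous list (Vwf, Slc38a5, Il1r1, Vcam1, Ndnf, Lmntd1, Flrt2). The WT library gave 207 such cells with 1133356 UMIs, and the KIKO library gave 272 with 1494596 UMIs.

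Cerebella were dissociated, frozen, thawed and captured as single cells by droplet 3' RNA sequencing. WT animals were C57BL/6 littermates, and KIKO was a knock-in knock-out mouse, a germline model with 1 knock-in and 1 knock-out allele of the same gene in every cell type. Mice were 6 months old, the sources used here name no treatment of these animals, and each library was a pool of 4 animals. With 1 library per genotype there is no replicate, so no test was possible, and every interval below covers counting error only; a difference between genotypes cannot be told apart from a difference between 2 pools or 2 captures.

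Capillaries are the smallest vessels and hold most of the endothelium of the brain. Their endothelial cells are sealed by tight junctions, keep vesicle traffic low and carry glucose, amino acids, lipids and hormones by dedicated transporters; Wnt and beta-catenin signalling maintains this barrier state. Along the vessel, gene expression shifts gradually from arteriole to capillary to venule, and the zones are not separated by sharp borders.

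Nearly all cells carried the endothelial genes that the rule asks for. Cldn5, the main claudin of brain endothelial tight junctions, had a UMI in 98.6% of WT and 98.2% of KIKO cells, and the VEGF receptor Flt1 in 99.5% and 100%. Among the capillary genes, Ctla2a was found in 96.1% and 94.5% of cells, the carbonic anhydrase Car4 in 90.8% and 86.4%, and the lysolipid transporter Mfsd2a in 60.4% and 60.7%. Slc16a1, the lactate carrier MCT1, was found in 49.3% of WT and 50% of KIKO cells, Car5a in 50.7% and 41.5%, and Bok in 45.4% and 40.1%. These genes chose the cells, so their levels are a description. RNA of other cell types was present in part. At least 2 of 9 pericyte markers were found in 22.7% of WT and 18% of KIKO capillary cells, and at least 2 of 6 choroid plexus markers in 60.9% and 47.8%. Ttr, 1 of these 6, was in 100% and 99.6% of cells, so the choroid plexus share largely turns on 1 further marker. Ttr held 3418 of 3677 choroid plexus marker UMIs in WT and 9122 of 9577 in KIKO. The 7 microglia and macrophage markers summed to 161 UMIs in WT and 228 in KIKO, and fibroblast markers to 9 and 11. The 7 neuronal markers summed to 1 and 4 UMIs, with Rbfox3, Neurod1 and Gabra6 at 0, and the 6 T cell markers to 0 and 3, with Cd3e and Cd3g at 0.

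The zone name holds less firmly than the endothelial one, because the rule selects by depth as well as by zone. Of 817 WT and 1294 KIKO cells with the endothelial pattern, 720 and 1160 had at least 2 capillary genes, and 513 and 888 of those were left out because they also had 2 or more genes of another zone. The venous limit alone removed or shared in removing 347 WT and 591 KIKO cells. The cells left out were deeper, with a median of 8854 UMIs in WT and 8612 in KIKO against 5443 and 5464 in the capillary cells. When every cell was thinned to 3000 UMIs and the rule was applied again, 323 WT and 442 KIKO cells were capillary. Only 50.5% of these WT cells and 45% of these KIKO cells had been capillary at full depth. The set is therefore best read as endothelial cells with detected capillary genes and few detected genes of other zones.

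**Figure D1:**
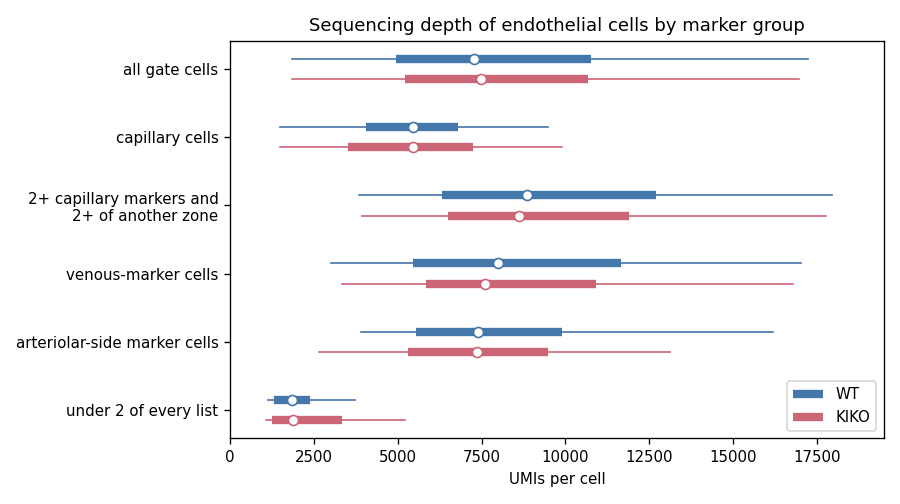
UMIs per cell (horizontal axis) for groups of endothelial cells in the WT and KIKO libraries; open circles are medians, thick bars the middle 50% and thin lines the 5th to 95th percentiles. The capillary cells of both libraries sit lower than the cells left out for markers of another zone, with medians of 5443 and 5464 UMIs against 8854 and 8612.

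Cells just inside and just outside the limits are given as a description. Cells with exactly 2 capillary genes (28 in WT, 55 in KIKO) had a median of 2594.5 and 2723 UMIs, and otherwise eligible cells with exactly 1 such gene (20 and 40) had 1898.5 and 2203.5. Rgcc, a capillary-enriched gene that the rule did not use, was at 1404 CPM (UMIs of the gene scaled to a total of 1000000) inside and 689 CPM outside that limit in WT, but at 402 and 399 CPM in KIKO. Spock2, another such gene, was at 1628 and 1575 CPM in WT and at 1747 and 1365 CPM in KIKO. Across the venous limit, Spock2 was at 1682 CPM in WT cells with 1 venous gene and 1546 CPM in those with 2, and at 1640 and 1851 CPM in KIKO. Neither limit showed a step of the same size in both libraries.

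Capillary cells made up 14.9% of filtered WT cells (207 of 1388; exact Clopper-Pearson 95% interval 13.1 to 16.9%) and 13.2% of filtered KIKO cells (272 of 2063; 11.8 to 14.7%). The difference was -1.73 percentage points with a Newcombe interval of -4.14 to 0.62, which covers only the counting of cells in these 2 libraries. Of the endothelial cells, 25.3% were capillary in WT and 21% in KIKO, a difference of -4.32 percentage points (-8.07 to -0.64). At 3000 UMIs per cell that difference was -5.22 points. Among cells with 4000 to 8000 UMIs it was -9.94 points, with 127 of 331 cells in WT and 145 of 510 in KIKO. The share of filtered cells turned with the depth limits: the difference was 0.57 points with no upper UMI limit and -7.48 points among cells with 4000 to 8000 UMIs. The share of endothelial cells was lower in KIKO in each of these settings, at -2.06 points with no upper limit.

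Expression was compared by summing UMIs over the capillary cells of each library. Of 3768 genes outside the rule that reached 50 CPM in 1 library, 119 were at least 1.5-fold higher in KIKO, which is 3.16% of the genes, and 67 were at least 1.5-fold lower, which is 1.78%. The median log2 ratio over these genes was 0.01, so the libraries were centred alike. The 95% counting interval excluded no change for 420 genes on the higher side (11.1%) and 386 on the lower side (10.2%). That background is the measure for the lists that follow. Because 50 CPM in 1 library was enough, a gene below it in the other library entered through the library where it was high.

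Immediate early genes, which cells transcribe within minutes of a stimulus, were lower in KIKO capillary cells throughout the list. All 18 genes with 50 CPM had a log2 ratio below 0, 7 of 18 were at least 1.5-fold lower, 16 of 18 lay below 0 beyond the counting interval, and the median was -0.51 against 0.01 over all genes. Egr1, a zinc finger transcription factor (ENSMUSG00000038418, chromosome 18, 34859823 to 34864984 on GRCm38), had 1139 UMIs in WT and 631 in KIKO, or 1005 and 422 CPM, a log2 ratio of -1.25 (95% counting interval -1.39 to -1.11). It was detected in 67.6% of WT cells and 47.4% of KIKO cells. Fos, a subunit of AP-1, was at 3649 CPM in WT and 2386 CPM in KIKO (-0.61, interval -0.68 to -0.55), although it was found in similar shares of cells, 88.9% and 84.2%. Its AP-1 partner Junb was at 2354 and 1526 CPM (-0.63), the orphan receptor Nr4a1 at 438 and 282 CPM (-0.64), Ier2 at 1488 and 969 CPM (-0.62) and Ier5 at 376 and 240 CPM (-0.65). The smallest differences were those of Fosl2 (-0.08) and of Dusp1, a phosphatase that switches off MAP kinases (-0.09).

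Nr4a3, another orphan nuclear receptor (ENSMUSG00000028341, chromosome 4, 48045153 to 48086447), had the lowest ratio of the genes with 50 CPM, with 81 UMIs in 29 WT cells and 31 UMIs in 20 KIKO cells (71.5 and 20.7 CPM, log2 ratio -1.78, interval -2.43 to -1.17). In the endothelial cells outside the capillary rule Nr4a3 was at 52.5 CPM in WT and 46.3 CPM in KIKO, a log2 ratio of -0.18 (-0.40 to 0.04). Nr4a3 reached 50 CPM in the WT capillary cells alone, so it entered through the library where it was high. The count is small, and in the 48 WT and 65 KIKO capillary cells with no gene of any other zone the ratio turned to 1.05. Egr1 stood at 1630 CPM in WT and 784 CPM in KIKO in those other endothelial cells, a log2 ratio of -1.06, and Fos at 4979 and 3314 CPM (-0.59), so both were lower in KIKO in and outside the capillary cells. The median of the list outside was -0.48.

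Heat-shock chaperones showed the other direction for part of the list. Of 15 genes, 3 were at least 1.5-fold higher in KIKO and none lower, 9 were higher and 1 lower beyond the counting interval, and the median was 0.27. Hspa1b, an inducible HSP70 (ENSMUSG00000090877, chromosome 17, 34956436 to 34959238), was at 1121 CPM in WT and 1788 CPM in KIKO (0.67, interval 0.58 to 0.77), and was found in 68.1% and 81.3% of cells. Its near-identical copy Hspa1a was at 1863 and 2818 CPM (0.60), and the HSP110 gene Hsph1 at 150 and 229 CPM (0.61). How reads shared by both HSP70 copies were assigned is uncertain, and their promoters (below) are the same in 296 of 300 bases. The co-chaperone Chordc1 was at 85.6 and 122 CPM (0.52). The constitutive Hspa8 was lower, at 2136 and 1986 CPM (-0.11), Hsp90ab1 was near 0 (-0.01), and Dnajb1 was at 229 and 193 CPM (-0.24, not beyond counting). In the endothelial cells outside the rule Hspa1b went from 714 CPM in WT to 1530 CPM in KIKO, a log2 ratio of 1.10 (1.05 to 1.15) against 0.67 in the capillary cells. The WT capillary cells were the higher of the WT groups for this gene.

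The promoters of these genes are shown because the 2 lists moved in opposite directions. Sequences are from RefSeq on GRCm38.p6, read 5′ to 3′ on the gene's strand and lying before the transcription start. Capitals mark the letters TGACGT on either strand, the core of the cyclic AMP response element, in Nr4a3 (chr4:48045055-48045125, plus strand) and Fos (chr12:85473804-85473849, plus strand). In Hspa1a (chr17:34972233-34972280, minus strand) and Hspa1b (chr17:34959315-34959362, minus strand) they mark GAANNTTC, the core of the heat-shock element, which reads the same on both strands.
Nr4a3: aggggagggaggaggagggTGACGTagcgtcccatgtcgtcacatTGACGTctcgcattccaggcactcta
Fos: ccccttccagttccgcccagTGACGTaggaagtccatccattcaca
Hspa1a: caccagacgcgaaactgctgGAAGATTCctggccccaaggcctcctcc
Hspa1b: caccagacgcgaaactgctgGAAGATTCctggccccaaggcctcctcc
In the 250 bases before the start, TGACGT was present in 6 of the 16 immediate early promoters in the table, in none of 12 heat-shock promoters, in 14% of the 3021 tested genes and in 6.47% of all 32851 promoters. GAANNTTC was present in 6 of 12 heat-shock promoters, in 2 of 16 immediate early promoters, in 6.09% of the tested genes and in 6.69% of all promoters. The immediate early genes with TGACGT were Atf3, Btg2, Dusp1, Fos, Maff and Nr4a3, of which Dusp1 differed little between the libraries (-0.09). The heat-shock genes with GAANNTTC were Dnaja1, Hspa1a, Hspa1b, Hspb1, Hspd1 and Hspe1. A match is a description of letters and not of binding, and whether matches go with the ratios was not tested. Nr4a3 carried 3 matches, 2 of which are shown, and the other promoters printed here carried 1 each.

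**Figure D2:**
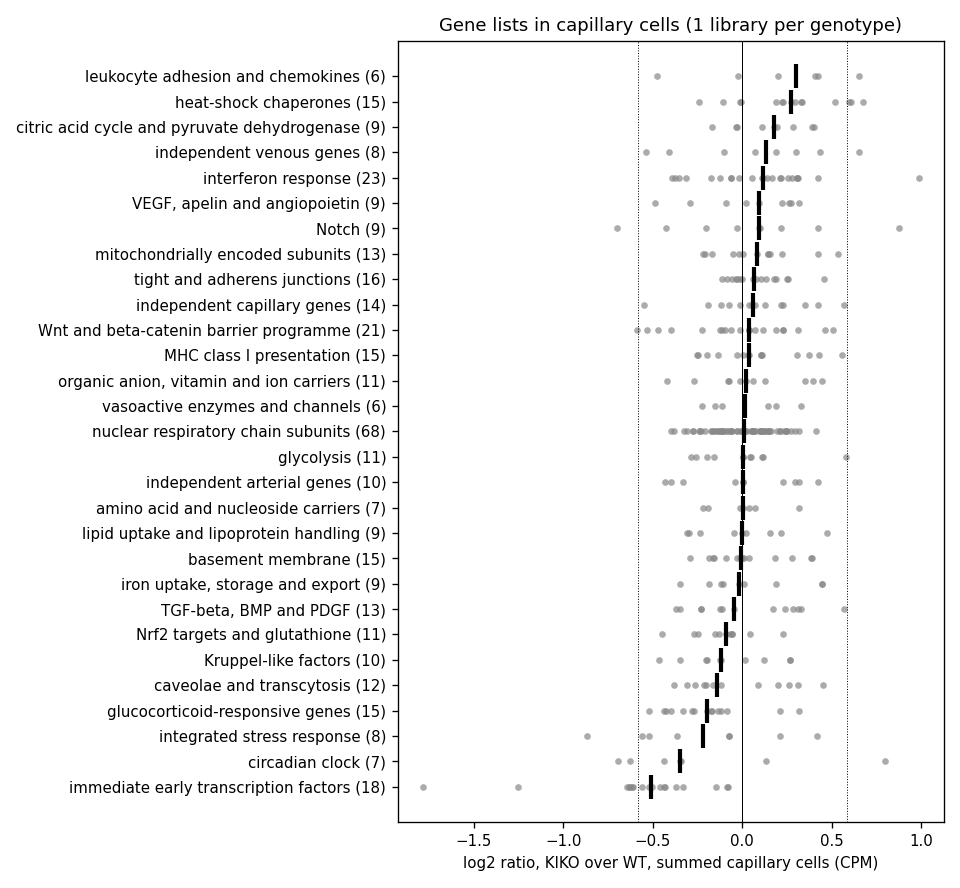
log2 ratios of KIKO over WT in summed capillary cells (horizontal axis) for the genes of each list with 50 CPM; the number of genes is in brackets, each point is 1 gene, the black bar is the list's median and dotted lines mark 1.5-fold. The immediate early list lies wholly below 0 with a median of -0.51, while the barrier, transport and respiratory chain lists centre near 0.

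Genes of related stress and hormone programmes were mostly lower in KIKO by small amounts. Of 15 genes that respond to glucocorticoids, none passed 1.5-fold, 9 were lower and 1 higher beyond the counting interval, and the median was -0.20. Pglyrp1 was at 2108 CPM in WT and 1572 CPM in KIKO (-0.42), Cdkn1a, a cell cycle inhibitor, at 1285 and 1022 CPM (-0.33), and the kinase gene Sgk1 at 311 and 256 CPM (-0.28). The receptor itself, Nr3c1, was at 230 and 287 CPM (0.32). Of 8 genes of the integrated stress response, which slows translation and induces the transcription factor Atf4, 1 was at least 1.5-fold lower and the median was -0.22: Ddit3 (CHOP) was at 69.7 and 38.1 CPM (-0.87), Ppp1r15a at 248 and 168 CPM (-0.56), and Atf4 at 268 and 208 CPM (-0.37). Xbp1 went the other way, from 84.7 to 113 CPM (0.42).

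Clock genes lay on both sides of 0. Arntl (BMAL1), an activator of the clock, was at 45.9 CPM in WT and 79.6 CPM in KIKO (0.80, interval 0.31 to 1.29). The repressors Nr1d1 (REV-ERB alpha) and Nr1d2 were at 57.4 and 35.5 CPM (-0.69) and at 54.7 and 35.5 CPM (-0.63), and Per1 was at 96.2 and 70.9 CPM (-0.44). The activators Clock (0.13, not beyond counting) and Rora (-0.35) did not follow Arntl. Arntl reached 50 CPM in KIKO alone, and Nr1d1 and Nr1d2 in WT alone, so each entered through the library where it was high. Of 7 clock genes with 50 CPM, 1 was at least 1.5-fold higher, 2 were lower and the median was -0.35. Below that limit the clock outputs Tef (40 UMIs in WT, 23 in KIKO, -1.20) and Dbp (13 and 1, -4.10, interval -9.51 to -1.36) and the repressor Per2 (10 and 2, -2.72, interval -5.95 to -0.49) were lower. The time of day of each collection is not given in the sources used here and its part was not tested.

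Differences in the junction, efflux pump and caveolae lists stayed under 1.5-fold. Of 16 tight and adherens junction genes none passed 1.5-fold, and the log2 ratios ran from -0.12 to 0.45. Beyond the counting interval, 2 of the 16 were higher and 0 lower. The scaffold gene Tjp1 (ZO-1) was at 1001 CPM in WT and 1197 CPM in KIKO (0.26), occludin (Ocln) at 257 and 290 CPM (0.17) and Esam at 628 and 612 CPM (-0.04). Among efflux pumps, Abcb1a (P-glycoprotein) was at 1085 and 1090 CPM (0.01, interval -0.10 to 0.11), and Abcg2 at 1196 and 1334 CPM (0.16, interval 0.06 to 0.26). Of 12 genes for caveolae and transcytosis none passed 1.5-fold, but 4 were lower and 2 higher beyond the counting interval, with a median of -0.14. Cav1, the coat protein of caveolae, was at 132 and 181 CPM (0.45) and Cavin3 at 146 and 112 CPM (-0.38).

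Nutrient carriers differed gene by gene. Slc2a1 (GLUT1), the glucose carrier of the barrier, was at 2966 CPM in WT and 2439 CPM in KIKO (-0.28, interval -0.35 to -0.21). It was lower in the other endothelial cells too, at 3061 and 2622 CPM. Slco1c1 (OATP1C1), a thyroid hormone carrier, was higher in KIKO at 994 and 1309 CPM (0.40). The taurine carrier Slc6a6 was at 823 and 1025 CPM (0.32), while the large neutral amino acid carrier Slc7a5 (LAT1) was at 855 and 846 CPM (-0.02). None of the 22 genes in the 3 lists for glucose and lactate, amino acids, and organic anions, vitamins and ions passed 1.5-fold.

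Signalling lists held few genes past 1.5-fold. In the Wnt and beta-catenin list 1 of 21 genes passed 1.5-fold, and the feedback genes Notum (57.4 CPM in WT, 38.1 CPM in KIKO, -0.59) and Axin2 (79.4 and 54.9 CPM, -0.53) were lower, while the co-receptor Reck was at 82.9 and 118 CPM (0.51). Lef1, a transcription factor of the pathway, was at 787 and 852 CPM (0.12), and the median of 21 genes was 0.04. Beyond the counting interval, 6 of the 21 were lower and 2 higher. In the Notch list, Hes1, a target repressor, was at 487 and 300 CPM (-0.70), Dll4, a ligand counted in the VEGF list, at 122 and 87 CPM (-0.49), and the coactivator Maml3 at 27.4 and 50.2 CPM (0.88). Of the leukocyte adhesion genes, Icam1 was at 38.8 and 60.9 CPM (0.65, interval 0.11 to 1.20), Icam2 at 186 and 247 CPM (0.41), and the chemokine Cxcl12 at 1774 and 2374 CPM (0.42), while Cd200, an inhibitory surface ligand, was at 264 and 189 CPM (-0.48). Icam1 was the 1 of 6 past 1.5-fold, and 4 of the 6 were higher and 1 lower beyond the counting interval. Among chemokines below 50 CPM, Cxcl1 had 4 UMIs in WT and 34 in KIKO (2.69, interval 1.20 to 4.64), and Cxcl10 had 10, all in 1 cell, and 1. Of 23 interferon response genes 1, Ifit2, passed 1.5-fold, at 27.4 and 54.2 CPM (0.99). Irf7 (-0.39) and Isg15 (-0.36) were lower. Maml3, Icam1 and Ifit2 reached 50 CPM in KIKO alone and Notum in WT alone, so each entered through the library where it was high. No gene passed 1.5-fold in the lists for VEGF, TGF-beta and BMP signalling, basement membrane, vasoactive genes, MHC class I, lipid uptake or cholesterol synthesis. None did in those for glycolysis, the citric acid cycle, Nrf2 targets and Kruppel-like factors. Medians of these lists ran from -0.12 to 0.18. Beyond the counting interval, 4 of 9 VEGF genes were higher and 2 lower, and 4 of 10 Kruppel-like factors were lower and 1 higher. Over all genes the shares were 11.1% higher and 10.2% lower. Only 2 of 19 cholesterol synthesis and 9 of 26 citric acid cycle genes had 50 CPM.

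The extremes of those lists were modest. The VEGF co-receptor Nrp1 was at 203 CPM in WT and 253 CPM in KIKO (0.32), the TGF-beta co-receptor Tgfbr3 at 104 and 155 CPM (0.57), and Id2, a BMP target, at 144 and 111 CPM (-0.37). In the matrix list, Lama4 of the vascular basement membrane was at 42.4 and 55.5 CPM (0.39) and agrin (Agrn) at 116 and 95 CPM (-0.29), neither beyond counting. Edn1 (endothelin) was at 51.2 and 64.2 CPM (0.33) and Ece1, which activates it, at 251 and 215 CPM (-0.23), also within counting. The class I gene H2-Q4 was at 122 and 179 CPM (0.56), a value that is uncertain because its family shares near-identical sequence. Of glycolytic genes, Eno1 was at 62.6 and 93.7 CPM (0.58) and Pkm at 260 and 213 CPM (-0.29). The glutathione peroxidase Gpx1 was at 425 and 311 CPM (-0.45), and Klf10 at 139 and 100 CPM (-0.46).

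Of 25 genes for iron-sulphur cluster assembly 4 reached 50 CPM, and none of these passed 1.5-fold. Iscu, the scaffold on which iron-sulphur clusters are built, was at 61.8 CPM in WT and 90.3 CPM in KIKO (0.55, interval 0.12 to 0.99). Below the limit, Slc25a28, a mitochondrial iron carrier, had 36 UMIs in WT and 27 in KIKO (-0.81, interval -1.59 to -0.054). The 68 nuclear genes of the respiratory chain had a median of 0.01, and none passed 1.5-fold. Of the 13 mitochondrially encoded genes, 3 were higher and 3 lower beyond the counting interval, with log2 ratios from -0.22 to 0.54 and a median of 0.08. Among the higher ones, mt-Co2 was at 2056 and 2981 CPM (0.54) and mt-Co3 at 2411 and 3225 CPM (0.42). The iron exporter Slc40a1 (ferroportin) was at 213 and 290 CPM (0.45), and the ferritin light chain Ftl1 at 1264 and 992 CPM (-0.35).

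The 12 highest ratios were led by genes of other cell types, and for the globin and smooth muscle genes 1 KIKO cell held most of the UMIs. Hbb-bs, a beta-globin gene of red cells, had 66 UMIs in WT and 1711 in KIKO, of which 1187 lay in 1 cell. Hba-a1 and Hba-a2 followed with log2 ratios of 3.54 and 3.27. Acta2, the smooth muscle actin, had 16 UMIs in WT and 167 in KIKO, of which 163 lay in 1 cell. Tagln, another smooth muscle gene, had 80 of its 82 KIKO UMIs in 1 cell, and its log2 ratio of 1.57 became -0.98 without the highest cell of each library. Mt3 had 50 of 78 KIKO UMIs in 1 cell and went from 1.72 to 0.41. The smooth muscle markers summed to 66.2 CPM in WT and 233 CPM in KIKO capillary cells.

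Transthyretin (Ttr), the secreted thyroid hormone carrier of the choroid plexus, was 2.02-fold higher in the KIKO sum, yet lower in the typical cell. Ttr was found in 207 of 207 WT and 271 of 272 KIKO capillary cells. It was also found in 43 of 43 WT and 181 of 182 KIKO cells with T cell markers (median depths 7207 and 8111 UMIs). Detection of Ttr therefore does not set the capillary cells apart, and the source of its RNA was not tested. The median was 15 Ttr UMIs per WT capillary cell and 6 per KIKO capillary cell. Of 9122 KIKO UMIs, 3754 lay in 5 cells, all with only 2 capillary genes. In KIKO 13 capillary cells had 4 or more of 6 choroid plexus markers, 9 of them with only 2 capillary genes, and no WT cell did. Without such cells the log2 ratio of Ttr turned from 1.02 to -0.88. Ecrg4, a secreted peptide gene at 3654 CPM in WT and 4126 CPM in KIKO choroid plexus cells, moved with it, from 1.87 to -0.092.

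The other 4 of the 12 highest were Agmo, Fgf13, Lrmda and Tcaf1. Agmo, Lrmda and Tcaf1 reached 50 CPM in KIKO alone, so each entered through the library where it was high. Agmo, an alkylglycerol monooxygenase (ENSMUSG00000050103, chromosome 12, 37241641 to 37582202), had 29 UMIs in 19 WT cells and 102 in 41 KIKO cells (25.6 and 68.2 CPM, log2 ratio 1.42, interval 0.81 to 2.06). Fgf13, an intracellular member of the fibroblast growth factor family, had 62 UMIs in 29 cells and 186 in 64 cells (54.7 and 124 CPM, 1.19). Tcaf1 had 29 UMIs in 26 cells and 81 in 60 cells (1.08), but its ratio was -0.39 in capillary cells with no gene of another zone. Lrmda had 38 UMIs in 21 cells and 110 in 42, with 33 in 1 cell (1.13, or 0.82 without the highest cells), and its ratio turned to -0.38 without cells that had markers of another class. In the other endothelial cells Agmo was at 0.50, Fgf13 at 0.27, Tcaf1 at 0.09 and Lrmda at -0.02 on the same log2 scale.

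Besides Nr4a3 and Egr1, the lowest ratios included genes of other cell types. Rgs5, a pericyte signalling regulator, had 732 UMIs in WT and 383 in KIKO (646 and 256 CPM, -1.33), in 49.3% and 33.1% of cells. Pericyte cells held 4511 and 4257 CPM, and cells with T cell markers had an Rgs5 UMI in none of 43 in WT and 7.69% in KIKO. The 9 pericyte markers together, Rgs5 included, were at 846 CPM in WT and 362 CPM in KIKO capillary cells. Rgs5 made up 732 of their 959 UMIs in WT and 383 of 541 in KIKO, and Vtn 135 and 74, so the sum mostly repeats Rgs5. At least 2 of the markers were found in 22.7% of WT and 18% of KIKO capillary cells. The part of pericyte RNA in other results was not tested. Ptgds, a prostaglandin D synthase gene, was at 2091 CPM in WT and 1364 CPM in KIKO choroid plexus cells. In capillary cells Ptgds had 44 of its 83 WT UMIs in 1 cell and went from -1.35 to -0.60 without the highest cells. Zfp503 (-1.29), Edem1 of ER-associated degradation (-1.17), Gm47283 (-1.04), Gabpb1 (-0.97), Klhl7 (-0.95), the mitophagy receptor Bnip3 (-0.94), Ubxn6 (-0.89) and Ddit3 (-0.87) lay in 27 or more cells of each library and changed little when the highest cells were left out. Of these, only Gm47283 and Bnip3 reached 50 CPM in both libraries, and the others, like Ptgds, entered through WT alone.

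**Figure D3:**
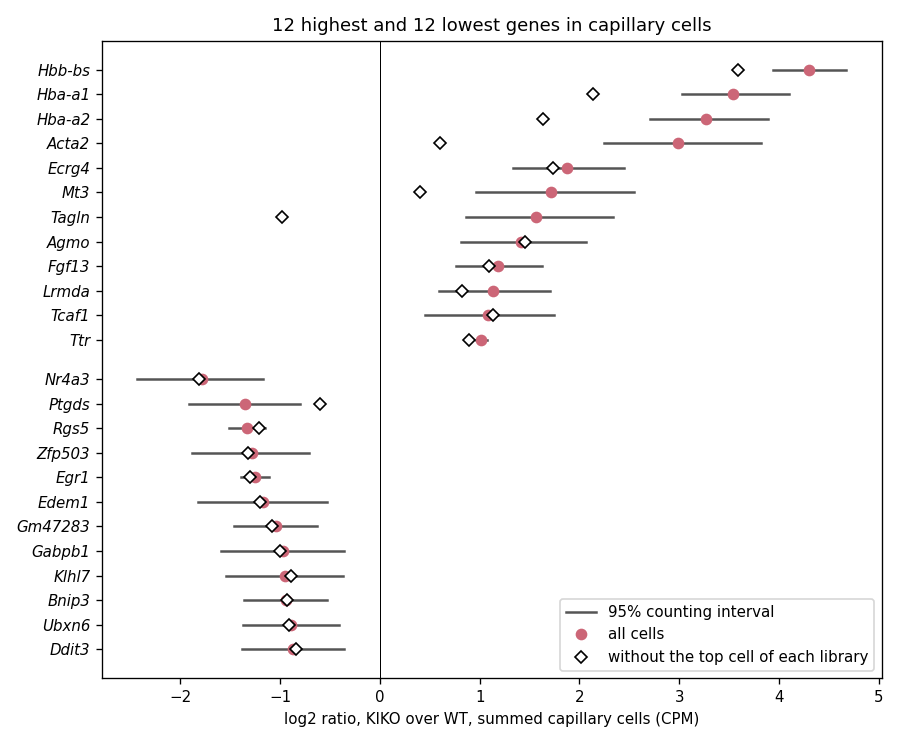
log2 ratios of KIKO over WT in summed capillary cells (horizontal axis) for the 12 highest and 12 lowest genes, with all cells (filled), with the 95% counting interval (line) and without the cell of each library with most UMIs of that gene (diamond). Acta2, Mt3 and Tagln shift far towards or past 0 when 1 cell per library is left out, while Agmo, Nr4a3 and Egr1 hardly move.

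Against neighbouring zones the capillary cells differed by degree. The other zones as first written (at least 2 of their own genes and fewer than 2 capillary genes) held 2 to 14 cells per library, too few to sum. Cells with at least 2 venous genes, or at least 2 arteriolar-side genes, and fewer than 2 of the other non-capillary lists were used instead, whatever their capillary genes: 278 WT and 453 KIKO venous-marker cells, and 112 and 200 arteriolar-side marker cells. The definition was chosen after the data were seen, and most of these cells also carry capillary genes. A gene needed 50 CPM in 1 of the 2 compared groups in each library. Genes below that in the other group entered through the group where they were high. Of 3587 genes outside the rule, 7 were at least 2-fold higher in capillary than in arteriolar-side cells in both libraries (0.195%) and 26 were at least 2-fold lower (0.725%). Against venous-marker cells, 1 of 3547 was higher (0.0282%) and 14 were lower (0.395%). The list counts that follow give direction with no fold limit. The share of all tested genes with 1 direction in both libraries is not given here, so those counts are a description.

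Arterial genes that the rule did not use were mostly lower in capillary than in arteriolar-side cells, though not all were low in capillary cells. Against the arteriolar-side cells, 10 of 13 arterial genes were lower in capillary cells of both libraries and 2 were higher, with medians of -0.75 in WT and -0.62 in KIKO. Of the 13, Edn3, Efnb2 and Cdh13 reached 50 CPM in arteriolar-side cells alone, so the limit fixed their direction. In the WT library this also held for Alpl and Jag1. Against venous-marker cells, 3 of 8 arterial genes were higher in both libraries and 3 were lower, with medians of -0.02 and 0.07. Cdh13, an adhesion receptor of arterial endothelium, was at 11.5 CPM in WT and 36.1 CPM in KIKO capillary cells against 175 and 117 CPM in arteriolar-side cells. Crip1 was at 296 and 298 CPM against 839 and 529 CPM, Alpl, the alkaline phosphatase, at 45.9 and 56.2 CPM against 122 and 131 CPM, and Tm4sf1 at 371 and 361 CPM against 626 and 674 CPM. The red cell gene Hbb-bt led the comparison, at 5.29 and 36.8 CPM in capillary cells against 173 and 244 CPM. Among the other genes that led it without being on a list, S100a6, a calcium-binding protein, was at 10.6 and 13.4 CPM against 97.4 and 56.8 CPM, Emp1 at 27.4 and 13.4 CPM against 88.8 and 70 CPM, and S100a10 at 93.5 and 64.9 CPM against 294 and 235 CPM. Ccn3 had 1 UMI in WT capillary cells and 30 in KIKO, against 54 and 82. Gm9946 and Runx1t1 completed the 8 lowest, with log2 ratios from -1.93 to -1.52.

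Genes higher in capillary than in arteriolar-side cells were led by Tmsb10, an actin-binding thymosin, at 1271 and 1333 CPM against 429 and 447 CPM, a log2 ratio of 1.57 in WT and 1.58 in KIKO. Ackr3, a scavenging receptor for Cxcl12, was at 113 and 85 CPM against 43.3 and 29.7 CPM. Both are on the list of venous genes. Pde7b, a cyclic AMP phosphodiesterase, was at 159 and 233 CPM against 56.3 and 95.8 CPM, Adgrl3 at 350 and 334 CPM against 145 and 69.4 CPM, and Net1 at 386 and 272 CPM against 141 and 125 CPM. Inpp5d and Gnb4 were also among the 8 highest, with log2 ratios from 0.99 to 1.28. Capillary genes outside the rule were higher in both libraries for 9 of 14, with medians of 0.29 and 0.23. Among them the transferrin receptor Tfrc was at 225 and 207 CPM against 131 and 158 CPM, and Hmcn1 at 589 and 872 CPM against 348 and 472 CPM.

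On the venous side, 9 of 10 venous genes outside the rule were lower in capillary cells of both libraries, with medians of -0.75 in WT and -0.74 in KIKO. Of the 10, Nr2f2 and Ephb4 reached 50 CPM in venous-marker cells alone, so the limit fixed their direction. In the WT library this also held for Icam1. Nr2f2 (COUP-TFII), the transcription factor of venous identity, was at 34.4 and 44.2 CPM in capillary cells against 151 and 134 CPM in venous-marker cells. Icam1 was at 38.8 and 60.9 CPM against 178 and 130 CPM. Pcdh9, a protocadherin, was at 4.41 and 5.35 CPM against 52.1 and 57.8 CPM, Nckap5 at 11.5 and 20.7 CPM against 70.1 and 120 CPM, and Wnt5a at 6.18 and 15.4 CPM against 51.7 and 58.6 CPM. Tpd52l1, Pcdh11x and Frmd5 were also among the 8 lowest, with log2 ratios from -1.85 to -1.20. Rad54b was the gene past 2-fold in the other direction, at 62.6 and 118 CPM against 26.7 and 46.3 CPM. Cxcl12 came next, at 1774 and 2374 CPM against 959 and 1264 CPM, followed by Cald1, Cables1, Cebpb, Retreg1, Hdac9 and Tceal9 with log2 ratios from 0.77 to 0.98. Capillary genes outside the rule did not lean one way: 4 of 14 were higher and 7 were lower in both libraries, and Tfrc was lower in capillary cells, at 225 and 207 CPM against 290 and 390 CPM.

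**Figure D4:**
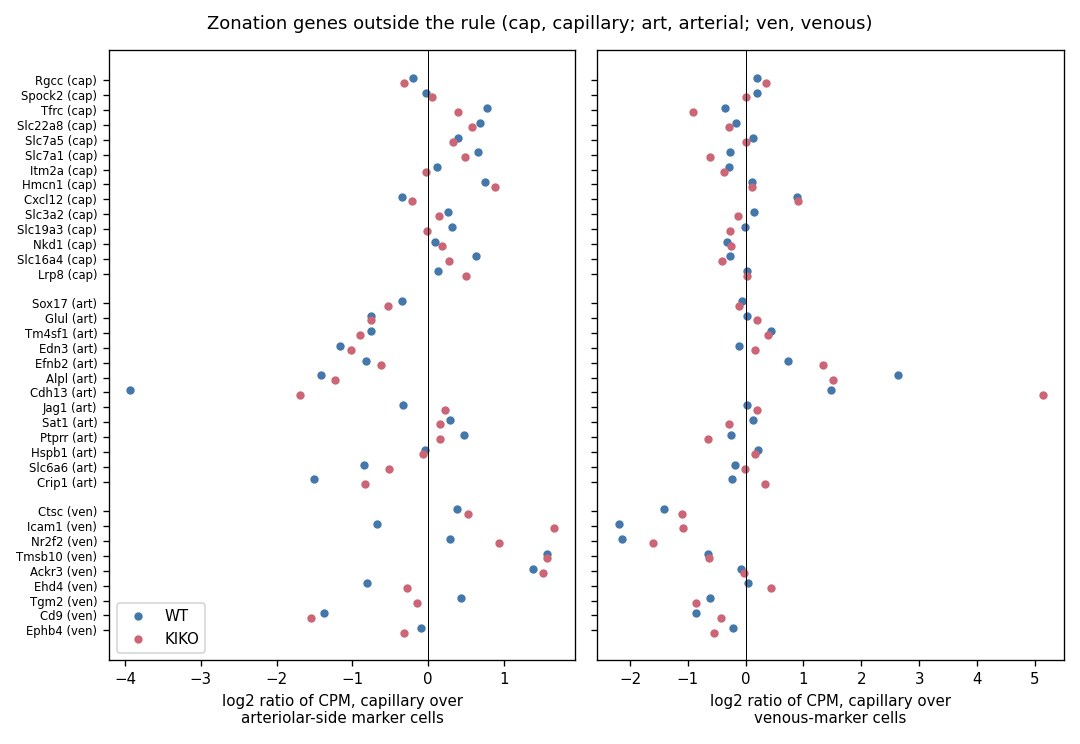
log2 ratios of CPM in capillary cells over arteriolar-side marker cells (left) and venous-marker cells (right) for zonation genes that the rule did not use and that reach 50 CPM, 1 venous gene not drawn; points are the WT and KIKO libraries. Arterial genes lie mostly left of 0 in the left panel and venous genes mostly left of 0 in the right panel. Capillary genes lie on both sides of 0 on the right, from Tfrc (-0.36 in WT, -0.91 in KIKO) to Cxcl12 (0.89 and 0.91).

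Mitochondrially encoded genes were slightly higher in the capillary cells than in arteriolar-side cells, 12 of 13 in both libraries with medians of 0.25 and 0.19. The shallower depth of the capillary cells moves with this: the mitochondrial share of UMIs was 3.68% in WT and 3.73% in KIKO capillary cells with 2 capillary genes, and 2.95% and 2.80% in those with 4 or more. Its part was not tested.

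Levels were also read by the number of capillary genes a cell held. Cells with 2, 3 and 4 or more capillary genes numbered 28, 49 and 130 in WT and 55, 64 and 153 in KIKO, with median depths from 2594.5 to 6269.5 and from 2723 to 6279 UMIs. The groups are cut by the rule's own genes, and the genes named next were picked for having 1 order in both libraries, so their values are a description. Wsb1 went from 42.6 to 137 CPM in WT and from 26.5 to 78.3 CPM in KIKO, Ackr3 from 53.2 to 121 CPM and from 37.1 to 94.2 CPM, and Hspa1a from 968 to 2115 CPM and from 1741 to 3265 CPM. Oxr1 went down, from 192 to 107 CPM and from 265 to 101 CPM. Enpp2 went from 287 to 183 CPM in WT and from 889 to 129 CPM in KIKO. Of the 13 KIKO capillary cells with 4 or more choroid plexus markers, 9 were in the group with 2 capillary genes, where Ttr was at 29815 CPM. Depth moves with the number of genes detected as well, and the part of neither was tested.

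The differences between genotypes were then read within these groups of cells. Egr1 was at 1490 CPM in WT and 540 CPM in KIKO cells with 2 capillary genes, at 827 and 353 CPM with 3, and at 994 and 420 CPM with 4 or more. The WT library was higher in each group and the intervals did not meet. Hspa1b was at 777 and 1429 CPM, 772 and 1443 CPM, and 1244 and 1957 CPM, with KIKO higher in each group. The immediate early median was -0.80, -0.56 and -0.46 over the groups, and the heat-shock median 0.16, 0.44 and 0.23. Ttr and Rgs5 did not keep 1 direction: Ttr was at 3916 CPM in WT and 29815 CPM in KIKO cells with 2 capillary genes but at 2651 and 1409 CPM with 4 or more, and Rgs5 was at 255 and 487 CPM with 2 but at 675 and 238 CPM with 4 or more. Icam1 also crossed, from 14 UMIs against 2 in cells with 2 capillary genes to 26 against 66 in cells with 4 or more.

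**Figure D5:**
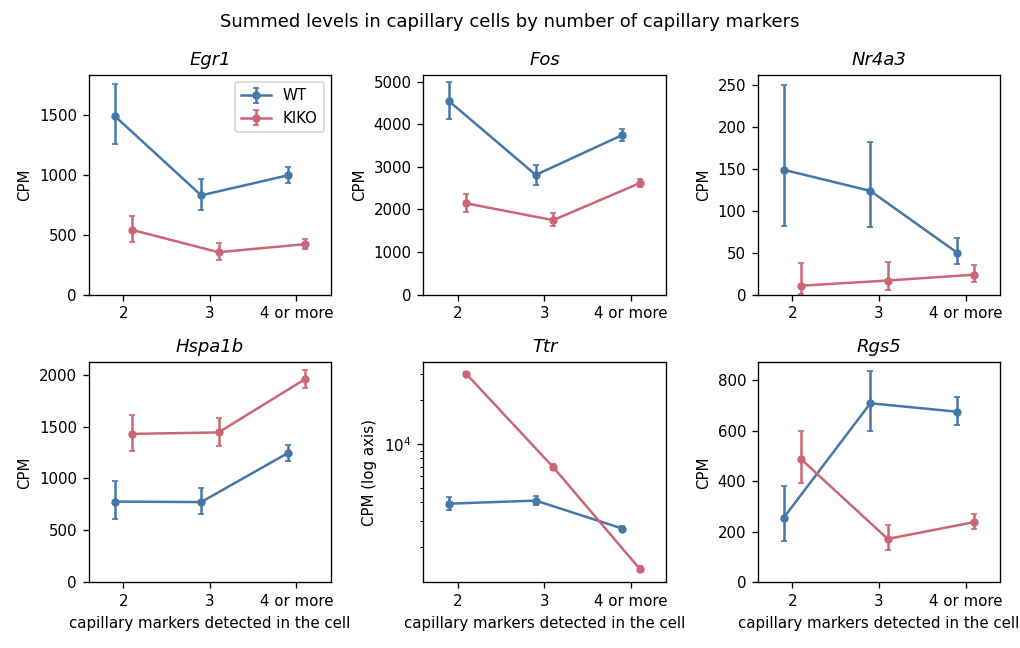
Summed levels (CPM, vertical axes; Ttr on a log axis) in capillary cells with 2, 3 and 4 or more capillary genes, for the WT and KIKO libraries with 95% Poisson intervals. Egr1, Fos and Nr4a3 are lower and Hspa1b is higher in KIKO in each group, while the Ttr and Rgs5 lines cross.

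Variation between single cells was high for several stress-related genes, though not highest for them. After thinning to 3000 UMIs, 172 WT and 215 KIKO cells remained (35 and 57 were shallower), and the Fano factor, the variance over the mean, had a median of 1.15 in WT and 1.16 in KIKO over 3688 genes. It was 9.0 in WT and 8.73 in KIKO for Fos, 7.84 and 7.30 for Jun, 7.79 and 7.37 for the flow-responsive factor Klf2, 8.70 and 8.90 for Hspa1a, and 4.72 and 4.09 for Egr1. The barrier glycoprotein gene Bsg reached 7.06 and 9.46, Cxcl12 3.73 and 4.75, and Rgs5 16.2 and 4.70. Gm42418, a transcript overlapping ribosomal RNA, reached 39.1 and 56.4, and the nuclear RNA Malat1 26.7 and 33.9. The red cell gene Hbb-bs was at 15.7 in WT and 491 in KIKO, and Ttr at 2.79 in WT and 420 in KIKO. The thinned sum of the 18 immediate early genes ran from 1 to 231 UMIs per WT cell with a median of 78.5, and from 2 to 203 per KIKO cell with a median of 51. Both libraries thus held cells at either end.

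Across these thinned cells, the immediate early sum went with the sum of 10 Kruppel-like factors, at a Spearman rho of 0.71 in WT (172 cells) and 0.70 in KIKO (215 cells). With the 15 glucocorticoid-responsive genes, 1 of which (Dusp1) is in both lists, rho was 0.57 and 0.55. With the 15 heat-shock genes it was 0.21 and 0.48, and with mitochondrial UMIs -0.10 and -0.04. The cells of a library share 1 dissociation and 1 capture, so these values describe cells of 1 sample.

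Facts of the libraries that touch the results are few. Barcodes numbered 3237 in WT and 3685 in KIKO; 45 sequences occurred in both, and 1 of the KIKO and none of the WT capillary cells carried one. Xist was found in 154 of 207 WT and 208 of 272 KIKO cells, and the Y-linked genes Ddx3y, Eif2s3y and Kdm5d were at 0 in both, with 1 Uty UMI in WT.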

How the data were processed

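Cells of 1 WT and 1 KIKO cerebellar pool were profiled with the 10x 3' v3.1 chemistry. The authors deposited raw UMI counts per gene and barcode on mm10; the file headers name Cell Ranger 7.0.1. Cells with over 500 genes, over 1000 and up to 20000 UMIs and under 10% mitochondrial UMIs were kept. No doublet caller was run; cells with markers of another class were left out as an alternative. UMIs were summed over capillary cells and scaled to CPM; ratios carry exact conditional binomial 95% intervals, shares Clopper-Pearson and their differences Newcombe intervals, which cover counting error only. The ratio script was tested on simulated data. Genes needed 50 CPM in 1 library and 30 UMIs in both together. Named genes were the 12 highest and 12 lowest ratios, the extremes of each list with any past 1.5-fold, and the 8 largest differences each way per zone; Dusp1, Hspa8 and similar list members were added for context. Members and lists were chosen with earlier results of these data known. Some items, the check of the altered gene among them, are not reported here. Gene positions are from GENCODE M21. Python 3 with numpy and scipy was used. Intervals narrow with depth: capillary totals were 1133356 and 1494596 UMIs.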

Additional observations from a re-analysis of the deposited data

Results flagged for a closer look

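Of the genes at least 1.5-fold apart between the libraries in capillary cells, 12 differed beyond counting in the opposite direction in the endothelial cells outside the capillary rule (610 in WT, 1022 in KIKO). The difference between the cell groups was not tested, since there is 1 library per genotype. The values are log2 ratios of KIKO over WT, capillary cells first. For red cell genes they were 4.30 and -0.57 (Hbb-bs), 3.54 and -0.70 (Hba-a1), and 3.27 and -0.74 (Hba-a2). For smooth muscle genes they were 2.98 and -2.44 (Acta2), 1.57 and -2.33 (Tagln), and 0.69 and -0.79 (Myl9). Ttr of the choroid plexus was at 1.02 and -0.08. The endothelial genes Icam1 and Notum, a Wnt feedback gene, were at 0.65 and -0.64 and at -0.59 and 0.28. Ccnd2, a cyclin, was at 1.01 and -0.24, Kalrn at 0.91 and -0.24, and Pkd1 at 0.67 and -0.34.

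Barcodes over 20000 UMIs were used in no comparison except those given with no upper UMI limit. Of 578 such barcodes in WT, 184 passed the endothelial gate, and of 388 in KIKO, 167 did; 0 of either met the capillary rule.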

How the results depend on the processing

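No paired analysis was possible because each genotype has 1 library. Leaving out cells with 2 or more markers of another class kept 68 WT and 123 KIKO cells, and the share differences became -12.3 (filtered cells) and -12.9 points (endothelial cells). With 4000 to 8000 UMIs they were -7.48 and -9.94 points. With no upper UMI limit they were 0.57 and -2.06 points, so the first changed sign. Genes at least 1.5-fold higher and lower in KIKO (119 and 67) numbered 424 and 264 with no marker of another zone (48 and 65 cells), 454 and 255 without cells with markers of another class, 31 and 39 under the rule at 3000 UMIs, 214 and 106 with 4000 to 8000 UMIs, 1444 and 880 with no CPM minimum, 33 and 31 with a minimum of 100 CPM, and 13 and 7 at 2-fold. With each cell weighted equally 115 were lower. Fewer cells or UMIs per gene widen the ratios. The number of genes tested also changes with the cells and the CPM minimum and is not given here for each setting. These counts are therefore not comparable as shares with 119 and 67 of 3768 genes.

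Against arteriolar-side cells, 12 genes were higher with no marker of another zone, 18 under thinning and 11 with 4000 to 8000 UMIs. At 3-fold 0 were higher and 5 lower. Against venous-marker cells, 5 were higher and 51 lower with no upper UMI limit. With no marker of another zone 3 were higher, under thinning 7, with 4000 to 8000 UMIs 0, and at 3-fold 0 were higher and 4 lower. The number of genes tested changes with the cells used here too, so these zone counts are not comparable as shares.

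Log2 ratios of KIKO over WT that changed sign are given by setting. Under thinning they were -0.61 (Hbb-bs), -1.01 (Hba-a1), -1.05 (Hba-a2), -0.60 (Ecrg4), -0.55 (Tagln), -0.85 (Ttr) and 0.037 (Ptgds). Without cells with markers of another class they were -0.038 (Hba-a2), -0.94 (Acta2 and Tagln), -0.30 (Ecrg4), -0.35 (Mt3), -0.38 (Lrmda) and -1.43 (Ttr). With no marker of another zone they were -0.052 (Mt3), -0.54 (Tagln), -0.39 (Tcaf1) and 1.05 (Nr4a3). With 4000 to 8000 UMIs they were -0.62 (Mt3), -0.84 (Tagln) and -0.20 (Ttr). Without cells with 4 or more choroid plexus markers they were -0.092 (Ecrg4) and -0.88 (Ttr), with at least 3 capillary markers -0.14 (Ttr), and without the highest cells -0.98 (Tagln). The cause was not tested.

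The immediate early median stayed between -0.65 and -0.40 and the heat-shock median between 0.15 and 0.35 under every setting run. Egr1 stayed between -1.42 and -0.87. The depth window, the wider zones and the settings without choroid plexus marker cells, shared barcodes or highest cells were chosen after the data were seen.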
